A study of Homo sapiens with 8 samples.

Results

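The simple and basal keratins examined here were KRT5, KRT6A, KRT7, KRT8, KRT15, KRT17, KRT18, KRT19, KRT80 and KRT81. These 10 genes of the 32642 gene names on the array were chosen by name, and every probe whose accession maps to one of them was read, which gave 14 probes. Gene expression was compared on 8 dual-color whole human genome arrays between H460 cells, a non-small cell lung cancer line, and 2 populations derived from them. H460C cells are the cancer stem cells (CSCs), obtained by growing H460 cells without attachment in serum-free DMEM/F12 medium with EGF and FGF-b. H460R cells are cisplatin-resistant cells, which had survived 0.5 µg/ml cisplatin for 72 hours and were then kept without the drug. H460 and H460R cells grew in RPMI medium with 10% serum, so medium and attachment differ between H460C and the others and cannot be told apart from the CSC state. Both populations had 2 RNA samples, and each sample met the H460 RNA on a dye-swap pair of arrays. Only 1 H460 RNA is named in the labels.

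Keratins are the intermediate filament proteins of epithelial cells, and a filament needs a type I (acidic) and a type II (basic) partner. KRT8 and KRT18 are the first pair of simple epithelia, to which KRT7 and KRT19 are added in ductal and lung epithelium, while KRT5 and KRT15 belong to the basal cells of stratified and airway epithelium and KRT6A and KRT17 to activated or wounded epithelium. Keratins are used in pathology to type carcinomas, and their filaments anchor at desmosomes and hemidesmosomes. In the RefSeq annotation, KRT15, KRT17 and KRT19 lie in the type I cluster on chromosome 17, whereas the type II genes lie on chromosome 12 together with KRT18, a type I gene that neighbours KRT8.

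The 2 H460C samples did not differ beyond hybridization noise. The correlation across 24642 probes of their difference between the dye orientations was -0.0107, against 0.267 across 25713 probes for H460R. For this reason no SD is attached to H460C, which counts as 1 sample. The tested keratins of the list are given in H460R as mean ± SD with n = 2, whereas for other genes the SD is given only in part. The tests took both H460C ratios, so they leave out the spread between H460C cultures, and the ratio against a single H460 RNA leaves out the spread of the control. All H460C arrays were on one slide and all H460R arrays on another, so a slide difference and a population difference cannot be told apart. Of 7 epithelial markers, 6 were well above background on every array in H460C, 3 in H460R and 4 in H460. CDH1 (E-cadherin) was well above background on 4 of 4 arrays in H460C and on none in H460R or H460. The other marker lists were well above background in all H460C, H460R and H460 channels for 5, 3 and 3 of 10 lung epithelial genes, 2, 2 and 2 of 5 basal airway genes, 4, 5 and 5 of 7 fibroblast genes, 3, 3 and 2 of 7 leukocyte genes and 1, 1 and 1 of 5 endothelial genes. Of the leukocyte genes, CD14 and CD68 were above background in every channel and PTPRC, the common leukocyte antigen, in none. The epithelial list holds KRT8 and KRT18, and the basal airway list KRT5 and KRT15, so these counts are not separate from the keratins examined here. The part of these markers in the keratin values was not tested.

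The first question was which keratins the H460 populations express at a measurable level. By their brightest probe, 6 keratins could be measured everywhere: KRT8, KRT15, KRT18, KRT19, KRT80 and KRT81 were well above background in both channels of all 8 arrays. KRT5 and KRT6A were above background in none of the channels, so these arrays hold no measured level of either basal type II keratin. KRT17 was above background in 1 of 4 H460R channels, in no H460C channel and in 1 of 8 H460 channels.

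KRT7, the partner of KRT19 in many glandular epithelia, was near the limit of the arrays. It was well above background in H460 on all 4 H460C arrays and on 1 of 4 H460R arrays, but on none of the 4 H460C channels and none of the 4 H460R channels. Its log2 ratios on the H460C arrays were -0.37, -0.12, -0.30 and -0.47, and on the H460R arrays -0.09, -0.17, -0.25 and -0.07. All 8 lay below 0. The bound on the mean over these arrays was 1.23-fold lower in H460C than in H460, and the array at -0.12 did not reach it. On the H460R arrays H460 lacked a level in 3 of 4 channels, so no fold is given there. The bound sets the mean level of H460 against the higher of the dim channel's own signal and the lowest signal above background on each array, per channel after loess and scaling between channels. KRT7 did not pass the filter on dim probes and was not tested.

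**Figure D1:**
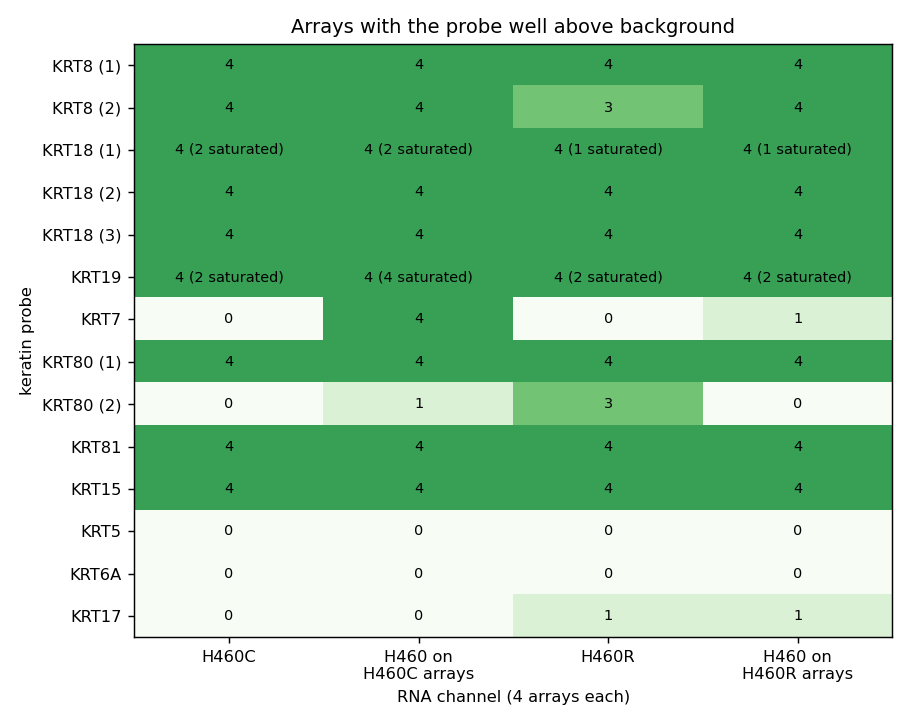
Number of arrays, of 4 in each column, on which each keratin probe was well above background in the RNA named below the column, with the arrays on which it was saturated in brackets. KRT5 and KRT6A read 0 in every column, KRT7 reads 4 only for H460 on the H460C arrays, and KRT19 carries saturated channels in every column.

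The second question was how the measured keratins differed from H460. KRT15 was 2.22-fold lower in H460C and near the H460 level in H460R, KRT18 was 1.77-fold and 1.79-fold lower in H460R at its probes without saturated spots and near the H460 level in H460C, and KRT80 and KRT81 were slightly lower in both. By Rank Products, the study's test, at a false discovery rate (FDR) of 0.05, no tested keratin was called in either population (0 of 6 each). Of all 20317 gene names tested, 0.556% were called higher and 0.502% lower in H460C, and 0.492% higher and 0.477% lower in H460R. The smallest unadjusted Rank Products p, one-sided in the direction of each gene's own mean, were 0.0043 for KRT15 and 0.0042 for KRT19 in H460C. In H460R the smallest was 0.01465 for KRT18, and all of these were lower. The share of all genes with such p was not counted, so no excess among the keratins can be read from them. KRT19 and this KRT18 probe have saturated spots. limma, which sets each ratio against the spread of the replicates, called 1 keratin higher (KRT8) and 4 lower (KRT15, KRT19, KRT80 and KRT81) in H460C, where it called 36.5% of all genes higher and 34.5% lower. In H460R limma called 0 keratins higher and 5 lower, all but KRT15, against 36.5% and 32.5% of all genes. The KRT8 calls were lost in H460C with its replicates averaged or either left out, and in H460R with either replicate left out, and the KRT81 call in H460R was lost without replicate 2. The median log2 ratio of the 6 keratins was -0.37 in H460C and -0.22 in H460R, against -0.00026 and 0.01 over all genes tested. H460C and H460R share the H460 control, so their values are given side by side.

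KRT15, a type I keratin of basal progenitor cells, had the lowest measured ratio of the 10 listed keratins in H460C. Its log2 ratios with H460C in Cy3 were -1.30 in replicate 1 and -1.37 in replicate 2, and with H460C in Cy5 they were -0.76 and -1.17. In H460R they were 0.01 and 0.03 in Cy3 and 0.11 and 0.15 in Cy5. All 4 H460C arrays lay below 0 and below every H460R array, and the H460R arrays lay between 0.01 and 0.15. The mean was -1.15 in H460C (Rank Products FDR 0.197, limma adjusted p = 8.3e-05) and 0.08 ± 0.02 (SD, n = 2) in H460R (FDR 1, limma adjusted p = 0.329). In the authors' processed table the 4 H460C arrays read -1.24, -1.06, -1.30 and -1.15, and the H460R arrays -0.05, 0.07, -0.05 and 0.10. On that scale too KRT15 was lower on every H460C array, while its H460R values lay on both sides of 0. In rank among the genes tested, KRT15 ranked within the lowest 2.14% in H460C.

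KRT18, the type I partner of KRT8, was read by 3 probes. On the brightest, the log2 ratios in H460R were -0.37 and -0.83 with H460R in Cy3 and -0.81 with replicate 1 in Cy5, and the spot of replicate 2 in Cy5 was marked as an outlier and had no value, so replicate 2 rested on 1 array. In H460C they were 0.35 and 0.21 in Cy3 and -0.11 and 0.08 in Cy5. H460R lay below H460C on every array with a value. This probe had saturated spots in the Cy5 channel, in H460C on 2 of 4 arrays, in H460R on 1 of 4 and in H460 on 3 of 8. Its mean was -0.71 ± 0.17 (SD, n = 2) in H460R (Rank Products FDR 0.329, limma adjusted p = 0.000415) and 0.13 in H460C.

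The other two KRT18 probes had no saturated spots. On the brighter of them the H460R ratios were -0.48, -1.14, -0.54 and -1.15, and on the dimmer -0.64, -0.92, -0.65 and -1.16. H460C had no value on 1 array for each probe, and its ratios were 0.08, -0.19 and -0.21 on the brighter and 0.02, -0.13 and -0.05 on the dimmer. All 8 values of these probes in H460R lay below every H460C value. The H460R means were -0.83 ± 0.02 and -0.84 ± 0.09 (SD, n = 2 each), 1.77-fold and 1.79-fold lower than H460, with Rank Products FDR of 0.238 and 0.226. By dye, the H460R means were -0.51 in Cy3 and -1.15 in Cy5 on the brighter probe and -0.64 and -1.04 on the dimmer. The SD is taken after averaging the dyes and leaves that difference out. The H460C means were -0.13 and -0.03. In the authors' processed table all 3 probes were likewise below 0 on all 4 H460R arrays, from -0.34 to -1.04 on the brightest probe. KRT18 has many processed pseudogenes, and since the probe sequences were not used here, their share in the signal cannot be told apart.

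KRT8, the type II keratin that pairs with KRT18, differed little from H460. On its brighter probe the H460C ratios were 0.08, 0.17, 0.04 and 0.17 and the H460R ratios -0.06, -0.27, 0.03 and -0.24, in the order Cy3 and Cy5 of replicate 1 and then of replicate 2. H460C lay above H460R on every array. The mean was 0.12 in H460C, 1.08-fold above H460 (Rank Products FDR 1, limma adjusted p = 0.0468), and -0.13 ± 0.04 (SD, n = 2) in H460R (limma adjusted p = 0.0311). The limma adjusted p for H460C was 0.234 with its replicates averaged and 0.267 and 0.205 without replicate 1 and 2, and that for H460R was 0.139 and 0.0575 without replicate 1 and 2. In the authors' processed table its sign in H460C followed the dye, at 0.18 and 0.21 in Cy3 and -0.10 and -0.07 in Cy5. The dimmer KRT8 probe did so in both populations, with 0.53 and 0.46 in Cy3 against -0.30 and -0.63 in Cy5 for H460C, and 0.41 and 0.64 against -0.24 and -0.47 for H460R. Its mean Cy5 ratio differed from its mean Cy3 ratio by -0.96 in H460C, a larger difference than that of 95.4% of all probes, so this probe gave KRT8 no direction.

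KRT19, the smallest keratin and a marker of lung and ductal epithelium, was too bright for the scanner. Its Cy5 channel was saturated on all 8 arrays, and on the arrays with H460C in Cy5 both channels were. The H460C ratios were -0.54 and -0.74 in Cy3 and -1.64 and -1.67 in Cy5, all below 0. The H460R ratios were 0.60 and 0.70 in Cy3 and -1.20 and -1.24 in Cy5, and their sign turned with the dye. That difference between the dyes was larger than for 99.7% of all probes, and KRT19 had no measured direction in H460R, although limma called its mean of -0.29 ± 0.02 (SD, n = 2) at an adjusted p of 0.00339. For H460C a bound could be set from the 2 arrays on which H460C was measured and only H460 was saturated: KRT19 was at least 1.56-fold lower in H460C. The bound comes from 1 dye orientation and is open to dye bias. The fitted mean of -1.15 over all 4 arrays (Rank Products FDR 0.197, limma adjusted p = 3.87e-05) is no measured size. The authors' processed table gave H460C ratios of -0.68 and -0.93 in Cy3 against -0.01 and 0 in Cy5.

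KRT80, a type II keratin of epithelial cell margins, and KRT81, a type II hair keratin that also occurs in carcinoma lines, had ratios below 0 on all 8 arrays. KRT80 read -0.33, -0.39, -0.35 and -0.49 in H460C and -0.50, -0.55, -0.23 and -0.55 in H460R. Its means were -0.39 in H460C, 1.31-fold lower (Rank Products FDR 0.78, limma adjusted p = 0.00122), and -0.46 ± 0.10 (SD, n = 2) in H460R, 1.37-fold lower (FDR 0.606, limma adjusted p = 0.00079). The ranges of the populations overlapped. A second, dimmer KRT80 probe was above background on no H460C array, on 3 H460R arrays and on 1 of 8 H460 channels, and was not tested.

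KRT81 read -0.36, -0.30, -0.35 and -0.35 in H460C and -0.14, -0.05, -0.25 and -0.19 in H460R. Every H460C array lay below every H460R array. The mean was -0.34 in H460C, 1.27-fold lower than H460 (Rank Products FDR 0.839, limma adjusted p = 0.00163), and -0.16 ± 0.09 (SD, n = 2) in H460R, 1.11-fold lower (FDR 1, limma adjusted p = 0.0313, and 0.18 without replicate 2). KRT81 is nearly identical to KRT86 and KRT83 over much of its length, and signal from these copies cannot be told apart. Counted over the arrays, 4 of 6 tested keratins were below 0 on every array with a value in H460C and 3 of 6 in H460R, against 31.6% and 27% of all genes tested. Above 0 on every array were 1 of 6 in H460C (KRT8) and 1 of 6 in H460R (KRT15), against 34.6% and 32% of all genes tested.

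**Figure D2:**
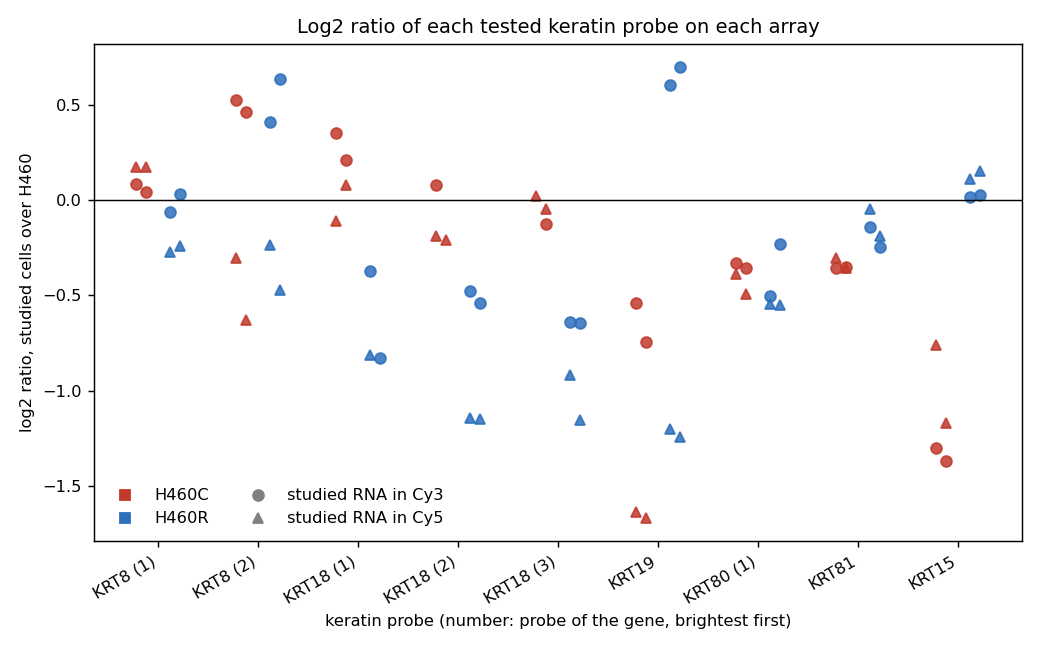
Log2 ratio over H460 of the 9 tested keratin probes on each array, H460C in red and H460R in blue, circles with the studied RNA in Cy3 and triangles in Cy5, probes of a gene numbered from the brightest. KRT15 lies below 0 in H460C alone, the 3 KRT18 probes lie below 0 in H460R, and KRT19 and the dimmer KRT8 probe separate by dye.

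The third question was which keratins differed between H460C and H460R, a difference from which the H460 RNA cancels. limma called 4 of the 6 tested keratins, KRT8 and KRT18 higher in H460C and KRT15 and KRT19 higher in H460R, against 28% and 27.9% of all genes tested in these directions. KRT15 was 2.34-fold lower in H460C than in H460R (log2 difference -1.23, SE 0.09, 95% interval -1.46 to -0.996, adjusted p = 0.000397). KRT18 was higher in H460C at each of its 3 probes, by 0.84 (SE 0.09, adjusted p = 0.0012) at the brightest and by 0.70 (SE 0.07, adjusted p = 0.00108) and 0.81 (SE 0.07, adjusted p = 0.000724) at the probes without saturated spots. KRT8 was higher by 0.25 (SE 0.06, 95% interval 0.11 to 0.40, adjusted p = 0.0152) at the brighter probe and differed by -0.07 at the dimmer one (adjusted p = 0.498). The KRT8 call was lost with either H460C replicate or H460R replicate 1 left out (adjusted p = 0.0713 and 0.0592, and 0.0533), with the H460C replicates averaged (0.0653), with median centring (0.206), with the Cy3 arrays alone (0.342) and with its probes averaged (0.27). The KRT19 difference of -0.86 (SE 0.07, adjusted p = 0.000425) rests on saturated channels.

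KRT80 and KRT81 were not called between the populations. The interval of the KRT80 difference ran from -0.11 to 0.24 on the log2 scale around 0.07 (limma adjusted p = 0.469). KRT81 was lower in H460C by a log2 difference of -0.19, with a 95% interval of -0.36 to -0.02 that left out 0 but an adjusted p of 0.0625 over all genes. The KRT81 difference passed in 5 of 17 alternatives: with the replicate number as a block (adjusted p = 0.0464), without H460R replicate 2 (0.0412), in the authors' processed table (0.0332), with the software's log ratio (0.0431) and without background subtraction (0.0262). It did not pass in the other 12, among them the H460C replicates averaged (0.175), H460R replicate 1 left out (0.161) and median centring (0.591).

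**Figure D3:**
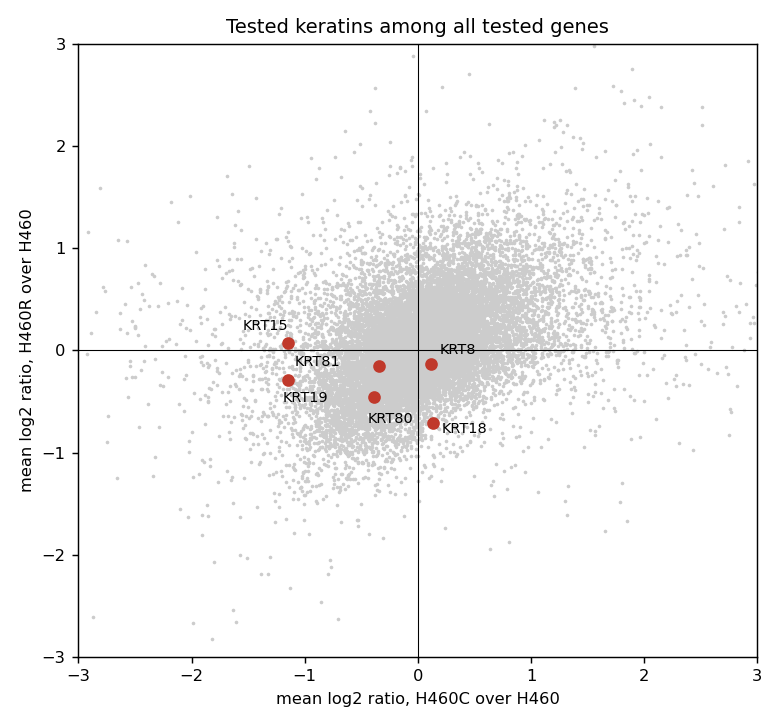
Mean log2 ratio over H460 in H460C (horizontal) and in H460R (vertical) for all tested genes (grey) and the 6 tested keratins (red, brightest probe). The axes share the H460 control and end at 3 in each direction, beyond which 62 genes lie. KRT15 sits far left of the vertical line near 0 on the other axis, KRT18 below the horizontal line, and KRT80 and KRT81 close to the center.

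Of 40 further keratin genes on the array, 13 could be tested and Rank Products called none. A probe that passed the filter through 1 population alone was admitted by its signal there, which can favour that direction. The limma calls between H460C and H460R are therefore counted, here and in later lists, over genes well above background in every channel of both. Of 17746 such genes, 28.5% were higher in H460C and 29.7% higher in H460R. By this count 0 of 9 further keratins were higher in H460C and 1 in H460R. KRT33A, a type I hair keratin that can pair with KRT81, had the lowest ratio of them, with -1.31, -1.70, -1.35 and -2.29 in H460C (mean -1.66, Rank Products FDR 0.0801). In H460R it read 0.21 and 0.28 in Cy3 and -0.87 and -1.03 in Cy5, a sign that followed the dye. KRT33A was lower in H460C than in H460R by -1.31 on the log2 scale (limma adjusted p = 0.0006), and KRT33B is a near-identical copy. KRT10, of suprabasal epidermis, had means of 0.31 in H460C and 0.44 ± 0.08 (SD, n = 2) in H460R. Its sign in H460C also followed the dye, at -0.09 and -0.10 in Cy3 and 0.73 and 0.69 in Cy5. In H460R it read 0.11 and 0.16 in Cy3 and 0.66 and 0.83 in Cy5. KRT23, a type I keratin of glandular epithelium, had a mean of 0.19 in H460C and was above background on no H460R array and, in H460, on 2 of those 4 arrays. Among 3 tested partners of the hair keratins, KRT33A included, Rank Products called none and limma called 0 higher in H460C and 1 higher in H460R.

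The proteins that hold keratin filaments at the cell border had ratios in both directions. Of 10 tested desmosome and plakin genes, Rank Products called none. Of the 8 measured in both populations, limma called 1 higher in H460C than in H460R and 5 higher in H460R. Desmoplakin (DSP), which links keratins to desmosomes, had a mean log2 ratio of 1.95 in H460C and 0.20 ± 0.15 (SD, n = 2) in H460R, where it was above background on 3 of 4 arrays, with H460 above background on all 4 H460C arrays and on none of the H460R arrays. DSP thus passed the filter through H460C alone, and its ratio there is that of a gene admitted by its H460C signal. Plakoglobin (JUP), its partner in the plaque, had a mean of -1.27 in H460C and 0.45 in H460R, and plakophilin 2 (PKP2) of -0.27 and 0.93. The JUP ratios in H460R were 0.88 and 0.93 in Cy3 but 0.02 and -0.03 in Cy5, so they depended on the dye. The median of those 8 was -0.29 in H460C and -0.02 in H460R, against -0.0028 and 0.02 over all genes measured in both.

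Among 8 tested hemidesmosome and basement membrane genes, Rank Products called none. All 8 were measured in both populations, and limma called 2 higher in H460C than in H460R and 5 higher in H460R. LAMB3, a laminin subunit of the basement membrane, had a mean of 1.35 in H460C and of -0.31 in H460R. Dystonin (DST), a plakin that binds keratin at hemidesmosomes, had a mean of -0.18 in H460C and 1.23 in H460R at its brightest probe. Its other probes went both ways in H460C, with log2 levels of 9.54 against 10.14 in H460 and of 7.96 against 7.32. In H460R they were higher than H460, at 10.39 against 9.91 and 8.38 against 7.21.

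Of 13 other tested intermediate filament genes, 2 were called higher in H460C by Rank Products and 1 in H460R, against 0.556% and 0.492% of all genes tested. These were the neurofilament subunits NEFM (mean 2.97, FDR 0.0145) and NEFH (mean 2.48, FDR 0.0353) in H460C, and SYNM, encoding synemin, a filament protein of muscle and glia (mean 1.69 ± 0.10, SD, n = 2, FDR 0.0482), in H460R. NEFM was also higher than H460 in H460R, with a mean of 1.63 ± 0.01 (SD, n = 2, Rank Products FDR 0.0613). NEFH had a mean of 0.54 ± 0.12 (SD, n = 2) in H460R, and SYNM of 0.02 in H460C. Of the 11 measured in both populations, limma called 8 higher in H460C than in H460R and 2 higher in H460R, with median log2 ratios over H460 of 0.74 in H460C and 0.44 in H460R.

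Regulators of keratins and squamous genes were read from lists of known members. Of 7 tested epithelial transcription factors, all measured in both populations, Rank Products called none and limma called 1 higher in H460C than in H460R and 3 higher in H460R. ELF3, an epithelial ETS factor, had a mean of 1.49 in H460C and 0.26 in H460R, with H460 above background on 2 of 8 arrays. GRHL3 had a mean of -0.01 in H460C and 0.98 in H460R, and KLF4 of -0.68 and -0.87. Of 7 cornified envelope and squamous genes, Rank Products called none, and of the 5 measured in both populations limma called 3 higher in H460C than in H460R and 1 higher in H460R. SFN (14-3-3 sigma) had means of 1.86 in H460C and 0.37 in H460R, the crosslinking enzyme TGM1 of -0.35 and -1.21, and the protease inhibitor CSTA of -0.30 and -0.97. The sign of SFN in H460R followed the dye, at 0.93 and 0.88 in Cy3 and -0.20 and -0.12 in Cy5. Of 10 tested keratin regulators and adaptors, 1 was called higher in H460C by Rank Products, against 0.556% of all genes tested. This was TNS4 (mean 2.88, FDR 0.0174), a tensin of focal adhesions rather than a keratin-binding protein. H460R was above background on 2 of 4 arrays and H460 on 3 of 8, so TNS4 passed the filter through H460C alone. Its call is that of a gene admitted by its H460C signal, and its mean of 0.0041 in H460R rests largely on dim channels. Of the 7 measured in both populations, limma called 6 higher in H460C than in H460R and 0 higher in H460R.

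**Figure D4:**
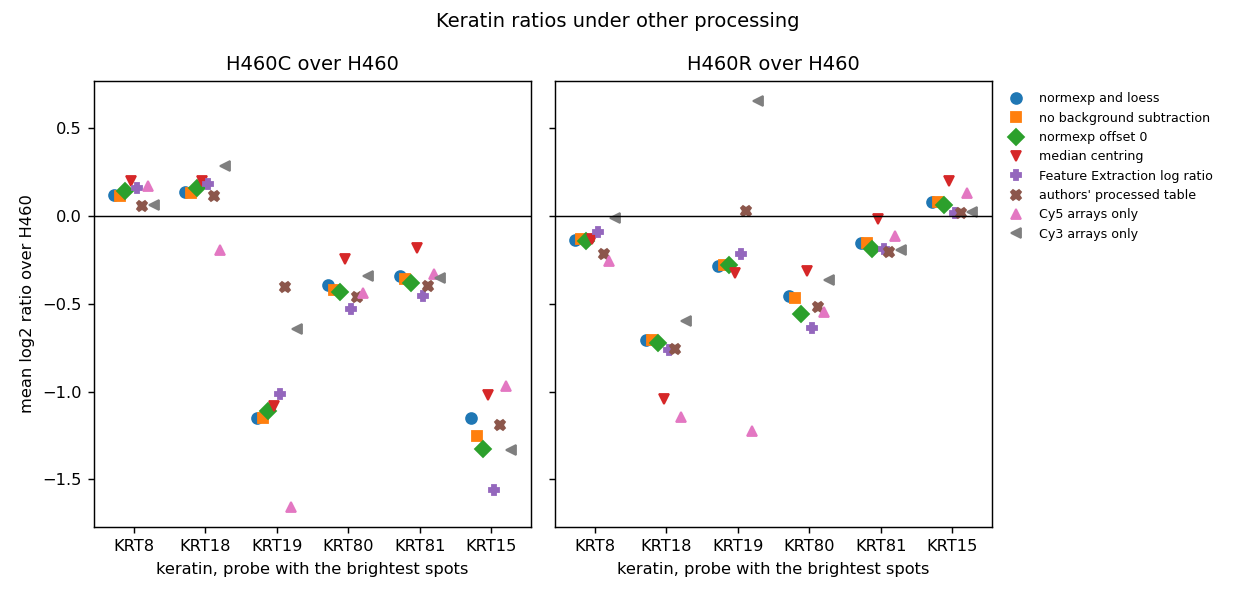
Mean log2 ratio over H460 of the 6 tested keratins under 8 ways of processing the arrays, H460C on the left and H460R on the right, each gene read from its brightest probe with a value. KRT15 stays below 0 in H460C and KRT18 below 0 in H460R throughout, whereas KRT19 in H460R ranges from -1.22 with the Cy5 arrays to 0.65 with the Cy3 arrays.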

How the data were processed

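The median intensities that the authors deposited for each spot and its local background, from Feature Extraction software 10.1.1.1, carry no normalization. The deposited log10 ratio came from the same software. The log10 ratios of 1 H460C array had lost their decimal points, which were restored. The authors' processed log2 table (limma is named in the submitters' processing notes) holds studied cells over H460, with background correction and normalization not given in the sources used here. Both were alternatives. The 0 or 1 marks for saturation, outliers and background were used as deposited. Columns without a sample numbered 0.

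Background was corrected with normexp (offset 50) in limma (version 3.58.1, R 4.3.3), ratios were normalized by loess within arrays with control spots left out, and dye-swap arrays were averaged. A probe passed when, on every array of at least 1 population, a share of 0.5 or more of its spots was well above background (26014 of 41000 with all ratios). Well above background per array were 25868 to 28499 probes for the studied cells and 22834 to 26966 for H460. Precision is limited by the number of arrays. Of 25074 RefSeq accessions, 23958 matched a symbol in RefSeq (GRCh38.p14, names and chromosomes only).

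Each population was tested against H460 by exact Rank Products, and H460C against H460R by limma, with Benjamini-Hochberg adjustment over all probes. Where 1 value was needed, the brightest probe stood for its gene. From each other list, members called by Rank Products were named, or else up to 3 with the largest ratio, of which some are not reported here. For each keratin called by Rank Products the nearest genes were to be named, and there was none. On simulated data Rank Products recovered 100% of 200 changed probes with 3 false among 203 calls, and limma 90% with 4 false among 184. The simulation gave set changes to these 200 of 26014 probes and left all others unchanged. On the arrays themselves limma called 36.5% of genes higher and 34.5% lower in H460C. The simulated recovery therefore does not give the power of either test for the keratins. The keratins and the gene lists were chosen with earlier results of these data known. Alternatives changed the background correction, normalization, filter, probe choice, arrays, test, replicate block and replicates.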

Additional observations from a re-analysis of the deposited data

Results flagged for a closer look

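KRT15 (log2 difference -1.23), KRT18 (0.84), KRT19 (-0.86, with saturated channels) and KRT8 (0.25) differed between H460C and H460R by limma. Among the arrays of 1 population, KRT80 in H460R had 1 array apart, at -0.23 (replicate 2, H460R in Cy3), and KRT81 in H460C had 1 apart, at -0.30 (replicate 1, H460C in Cy5). The test for an array apart covered 11 groups of 4 arrays, which are dye swaps of 2 samples, and chance gives about 1 in 20 such groups.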

How the results depend on the processing

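Rank Products called 215 genes in H460C and 197 in H460R, and limma 11365 between the populations. limma against 0 called 14426 genes and 5 keratins in H460C, and 14007 genes and 5 keratins in H460R. With the H460C replicates averaged, limma called 11628 genes and 4 keratins in H460C. Leaving out 1 replicate, also by limma, gave 10893 to 12401 genes and 4 keratins in H460C, and 10507 to 11828 genes and 3 to 4 keratins in H460R, KRT8 being lost in each case and KRT81 in H460R without replicate 2, the remaining sample being assumed to vary like the other population. Between the populations, median centring left 6219 genes and the Cy5 arrays alone 6781. The sign turned for KRT19 in H460R (0.025 in the authors' processed table, 0.65 with the Cy3 arrays), for KRT18 in H460C (-0.0097 averaged over probes, -0.13 from unsaturated probes, a setting chosen after seeing the data, and -0.20 with the Cy5 arrays alone, where the gene was read from the next probe because the brightest lacked a value) and for the KRT80 difference (-0.0020 without H460R replicate 1, 0.13 without H460R replicate 2). These values had not passed the test, except KRT19 by limma against 0. The calls of KRT15 (-1.57 to -1.10) and KRT18 (0.70 to 1.24) between the populations held in all 17 alternatives. The KRT19 values rest on saturated spots in each alternative that holds them. Replicate numbers alone tie the samples of the populations, and the correlation across probes of H460C 1 minus 2 with H460R 1 minus 2 was 0.206. With the replicate block, limma called 12255 genes and 5 keratins between the populations, KRT81 (adjusted p = 0.0464) being the keratin added. With 2 samples a population and saturated or dim spots, no size could be given for KRT19, KRT7, KRT5, KRT6A or KRT17.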
